A study of Homo sapiens with 2 samples.

Results

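Histones are the proteins around which DNA is wound, and the replication-dependent histone genes are the set that supplies them while DNA is copied. Their levels were read in T47D cells, a human breast ductal carcinoma line, that carry the Y537S change in ESR1, the gene of the oestrogen receptor alpha. The culture medium lacked hormones, the cells received a control siRNA at 25 nM, and both libraries were made from total RNA after ribosomal RNA depletion. The 2 libraries form 1 group of 2 replicates. The labels say neither whether the replicates were separate cultures nor whether the mutant line is a single clone. With 1 group there is no comparison between conditions and no p-value, and the smallest 2-sided exact p that 2 libraries could give is 0.5. Every spread given as SD is that between these 2 libraries (n = 2), which may be technical, and every interval covers counting error only.

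The genes were chosen as the protein-coding genes whose names begin with HIST1H, HIST2H, HIST3H or HIST4H. GENCODE release 29 lists 71 such genes, and 36 of them were found by Ensembl identifier among the 57820 gene rows of the count table. The 36 comprise all 6 named linker H1 genes, 9 of 17 H2A genes, 10 of 18 H2B genes, 7 of 15 H3 genes and 4 of 15 H4 genes. The other 35 names, all of core histones, were not matched and are not analysed here. Within the same histone loci lie 56 further rows whose identifiers no table here names. They took 0.328% and 0.329% of all reads in replicates 1 and 2, against 0.514% and 0.507% for the 36 named genes. Any total for the core histones is therefore a total over the named genes only, whereas linker H1 is complete.

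Core histones H2A, H2B, H3 and H4 form the octamer of the nucleosome, and linker H1 binds the DNA where it enters and leaves that particle. The replication-dependent genes are expressed mainly in S phase, lie in clusters, and mostly lack introns. Their messenger RNAs typically end in a conserved stem-loop in place of a poly(A) tail, and SLBP, the stem-loop binding protein, directs their processing and translation. Libraries made from total RNA retain such transcripts, which selection for poly(A) would largely lose. Some of these genes can also yield polyadenylated transcripts.

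The stem-loop is shown because it is the element that sets these transcripts apart from other messenger RNAs. A search of GENCODE 29 transcripts for the histone stem-loop motif, with a stem of 6 bases and a loop of 4 bases, found it in 18 of the 36 genes. It was found in 34 of 19684 protein-coding genes in all, which is 0.173%. In the 4 forms found, written 5′ to 3′ with the stem in capitals and the loop in lower case, the last base of the loop and bases of the stem varied.
Stem-loop of 11 genes, among them HIST1H2AC, HIST2H2BE and HIST3H2A: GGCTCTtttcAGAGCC
Stem-loop of HIST1H2BC, HIST1H2BD and HIST3H3: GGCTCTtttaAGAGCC
Stem-loop of HIST1H4H, HIST1H4J and HIST4H4: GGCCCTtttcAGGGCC
Stem-loop of HIST1H2AG: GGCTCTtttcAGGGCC
The motif was found in 5 H2A, 7 H2B, 3 H3 and 3 H4 genes and in none of the 6 H1 genes. A missing match says only that these letters are not in the annotated transcript. A match need not lie at the annotated 3′ end. At least 1114 bases follow it in HIST1H2AC, 1729 in HIST2H2BE and 390 in HIST3H2A, whereas as few as 6 follow it in HIST1H4J.

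Promoter sequences were available from RefSeq (GRCh38.p14) for 32 of the 36 genes, in a window of 300 bases from 250 bases before to 50 bases after the annotated start. The entries for HIST2H2AA3, HIST2H3PS2, HIST1H3J and HIST1H4C were not present. Searches on both strands covered 4 motifs, namely TATAAA (the TATA box), CCAAT, the octamer ATTTGCAT, which POU2F1 binds, and AAACACA, the AC box described for H1 promoters. The 250 bases before the start are shown for the H1 genes with the highest and the lowest level, for an H2A gene of a divergent pair, and for an H4 gene, because their motif content differs by family. Capitals mark every match to the 4 motifs, on either strand.
HIST1H1C (chr6:26056471-26056720, minus strand): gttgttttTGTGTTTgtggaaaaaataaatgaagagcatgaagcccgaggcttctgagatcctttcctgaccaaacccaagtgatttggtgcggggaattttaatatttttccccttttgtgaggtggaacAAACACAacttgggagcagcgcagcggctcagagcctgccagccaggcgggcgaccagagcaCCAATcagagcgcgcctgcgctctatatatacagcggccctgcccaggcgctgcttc
HIST1H1A (chr6:26017788-26018037, minus strand): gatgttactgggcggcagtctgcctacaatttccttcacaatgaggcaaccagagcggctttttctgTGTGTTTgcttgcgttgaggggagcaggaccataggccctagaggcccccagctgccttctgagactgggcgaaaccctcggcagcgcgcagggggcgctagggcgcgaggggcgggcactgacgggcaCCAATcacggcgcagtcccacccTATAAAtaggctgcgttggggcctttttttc
HIST2H2AC (chr1:149886668-149886917, plus strand): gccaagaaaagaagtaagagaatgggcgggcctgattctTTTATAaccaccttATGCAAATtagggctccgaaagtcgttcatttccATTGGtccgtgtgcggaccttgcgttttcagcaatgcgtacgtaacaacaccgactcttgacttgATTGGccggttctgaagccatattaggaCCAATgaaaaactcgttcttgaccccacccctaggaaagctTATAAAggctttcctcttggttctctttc
HIST1H4J (chr6:27823842-27824091, plus strand): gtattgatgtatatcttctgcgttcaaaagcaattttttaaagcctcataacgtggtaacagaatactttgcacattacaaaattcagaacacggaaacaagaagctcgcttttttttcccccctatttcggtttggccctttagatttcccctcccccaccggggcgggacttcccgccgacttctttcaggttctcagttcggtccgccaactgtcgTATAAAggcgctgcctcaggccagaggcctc

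The AC box was the motif whose share differed most between linker and core promoters. AAACACA was present in 6 of 6 H1 promoters and in 3 of 26 core promoters (HIST2H2AC, HIST2H3A and HIST2H3C), against 6.94% of all 27305 genes with a promoter entry. In 5 of the 6 H1 promoters it lay on the strand of the gene between 105 and 119 bases before the start. HIST1H1A had its match on the other strand, 183 bases before the start. CCAAT was present in all 6 H1, 8 H2A, 10 H2B and 5 H3 promoters and in 0 of 3 H4 promoters, against 39.7% of all promoters. The octamer was present in 6 of 8 H2A and 6 of 10 H2B promoters and in 1 of 5 H3 promoters, against 2.19% of all promoters, and in none of the 6 H1 or 3 H4 promoters. TATAAA was present in 23 of 32 promoters, against 13.99% of all promoters, and in 20 of these it stood on the strand of the gene 27 to 32 bases before the start. A match is a description of the letters and not evidence of binding. The 2 promoters of a divergent pair overlap, so that partners share matches. The octamer lay on the strand opposite to the gene in H2A and on the strand of the gene in H2B. HIST1H2AA, HIST1H2AC, HIST1H2AG and HIST2H2AC had it together with their H2B partners. The H3 promoter with the octamer is that of HIST1H3D, whose row overlaps that of the H2A gene HIST1H2AD. In the entries used for positions, both genes had the octamer 119 bases before the start and CCAAT at equal positions. That octamer can therefore be 1 match counted in both families.

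**Figure D1:**
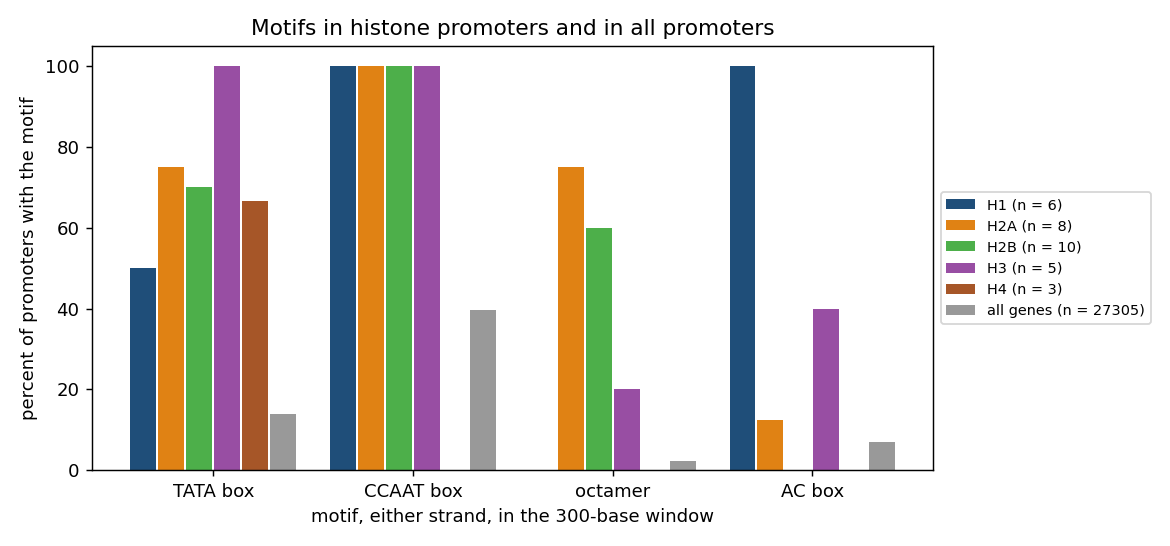
The plot gives, for each histone family and for all genes with a promoter entry, the percentage of genes that hold each motif. A motif counts on either strand of the 300-base window of any entry of the gene. AAACACA stands at 100% in H1 (6 of 6) and at 6.94% over all 27305 genes, and CCAAT stands at 0 in H4 (0 of 3).

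The 2 libraries held 41370662 and 37198274 reads assigned to genes. Levels are given as TPM, in which reads are divided by the summed exon length of the gene and scaled to a common total, and as CPM, in which reads are scaled to a common total without regard to length. Levels are compared between genes in TPM. A CPM or read value is added for some comparisons, and elsewhere the fold can move with the scale where lengths differ. Detection required a CPM of at least 1 in each library. Markers of luminal epithelium were detected for 7 of 7 genes, with KRT19 at 1385 ± 19.6 TPM, and 0 of 3 basal, 0 of 3 mesenchymal and 0 of 2 immune markers were detected.

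Of the 36 genes, 24 (66.7%) were detected, where 60.9% of the 19263 protein-coding rows were detected. At least 100 TPM in both libraries was reached by 17 genes (47.2%), against 2.24% of protein-coding rows. The median over the 36 genes was 87.8 and 77.3 TPM, against 2.42 and 2.19 TPM over all protein-coding rows. Both comparisons carry a difference in length, since TPM divides by it. The median exon length was 779 bases over the 36 genes and 4071 bases over protein-coding rows. Neither comparison was made in CPM. In bulk RNA, a share of cells in S phase and the RNA per such cell cannot be told apart. The detected and undetected genes were far apart: the lowest detected gene, HIST1H2BN, averaged 34.1 TPM and the highest undetected one, HIST1H1T, averaged 2.13 TPM. The 36 genes are 0.187% of protein-coding rows and took 0.624% and 0.633% of their reads.

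**Figure D2:**
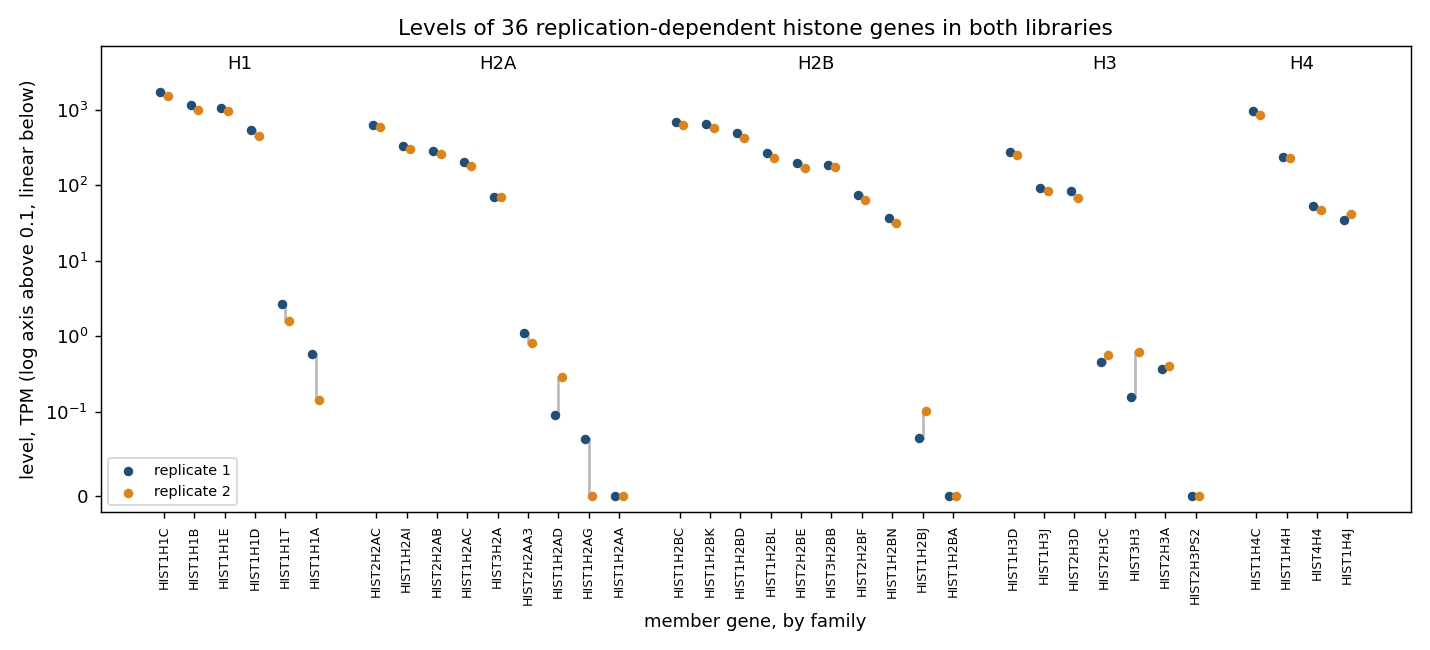
Each point is the level of 1 gene in 1 library, in TPM on an axis that is logarithmic above 0.1 and linear below, with the genes ordered by mean level within their families and colour for the replicate. The 4 detected H1 genes lie at 451 TPM or more in both libraries, and 12 genes of the families H1, H2A, H2B and H3 lie below 3 TPM.

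Linker H1 was carried by 4 genes, all single-exon rows of chromosome 6. HIST1H1C (H1-2), at 26055968 to 26056699 on the minus strand of hg19, had 33207 and 29186 reads. These gave 1712 TPM (95% Poisson interval 1694 to 1730) and 1504 TPM (1487 to 1521), the highest level of any of the 36 genes. HIST1H1B (H1-5), at 27834570 to 27835359, had 24229 and 20766 reads, or 1157 and 991 TPM. HIST1H1C was higher in both libraries, by 1.479-fold (1.455 to 1.504) and 1.517-fold (1.490 to 1.544).

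HIST1H1E (H1-4), at 26156559 to 26157343 on the plus strand, had 22054 and 19973 reads, or 1060 and 960 TPM. Its neighbour in the order, HIST1H1B, was 1.09-fold higher in replicate 1 and 1.03-fold higher in replicate 2, a log2 difference of 0.087 ± 0.056. The sign was the same in both libraries, but the size was close to the spread between them. HIST1H1D (H1-3), at 26234440 to 26235216, had 11238 and 9294 reads, or 546 and 451 TPM, which is below HIST1H1E by 1.94-fold and 2.13-fold. All 4 are somatic H1 subtypes.

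The other two H1 genes were near 0. HIST1H1T (H1-6), the testis-specific linker histone, had 51 and 31 reads, or 2.65 and 1.61 TPM. HIST1H1A (H1-1) had 12 and 3 reads, or 0.580 and 0.145 TPM. Its promoter, shown above, held CCAAT and the AC box, as did that of HIST1H1C. The promoter of HIST1H1C held the AC box on both strands and that of HIST1H1A on the strand opposite to the gene. Neither gene shares sequence with another gene by the measure used below, and neither is overlapped.

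Among H2A genes, which form a dimer with H2B, HIST2H2AC (H2AC20) was highest in TPM, with 7223 and 6772 reads, or 624 and 584 TPM. HIST1H2AI followed with 327 and 305 TPM and HIST2H2AB with 284 and 261 TPM. HIST1H2AC had 205 and 180 TPM. Its order against HIST2H2AB rests on length: HIST2H2AB was 1.42-fold higher in TPM but 0.381-fold in CPM, because the row of HIST1H2AC holds 1668 exon bases and that of HIST2H2AB 448. HIST3H2A stood at 69.1 and 70.0 TPM.

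Another 4 H2A genes were not detected. HIST1H2AA had 0 reads in both libraries, which allows up to 0.0725 and 0.0806 CPM. HIST1H2AG had 4 and 0 reads, and HIST1H2AD had 1 and 3 reads, with 98.0% of its exon bases overlapped by the row of HIST1H3D. HIST2H2AA3 had 16 and 12 reads, and 100% of its sequence recurs in another gene. For HIST1H2AD and HIST2H2AA3 the count cannot be told apart from a loss of ambiguous reads. HIST1H2AG has 4.13% of its annotated transcript sequence elsewhere, and the cause of its low count was not tested.

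H2B was the core family with the largest number of detected genes, 8 of 10. HIST1H2BC had 15083 and 13851 reads, or 682 and 626 TPM, and HIST1H2BK had 14031 and 12456 reads, or 646 and 573 TPM. HIST1H2BD stood at 491 and 419 TPM. HIST1H2BL had 268 and 228 TPM, HIST2H2BE 199 and 167 TPM and HIST3H2BB 184 and 177 TPM. The order of HIST2H2BE and HIST3H2BB in TPM changed between the libraries, with ratios of 1.08 and 0.948. In CPM, HIST2H2BE was 4.98-fold higher. The order in the lower part of the family rests on length: in CPM, HIST1H2BL stood at 0.276-fold of HIST2H2BE, and HIST3H2BB at 0.530-fold of HIST2H2BF. HIST2H2BF, at 75.2 and 64.8 TPM, and HIST1H2BN, at 36.6 and 31.7 TPM, closed the detected list, the latter on a row of 4265 exon bases. HIST1H2BA, known for expression in testis, had 0 reads in both libraries and HIST1H2BJ had 2 and 3.

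H3 had the lowest share of detected genes, 3 of 7, and 8 of its 15 named genes were not matched. Of the 7 rows, 5 are overlapped over 10% or more of their exon bases. At least 50% of the sequence recurs in other genes for 4 of the 7. Among the undetected genes, this share is 100% for HIST2H3A and HIST2H3C, and HIST2H3PS2 is overlapped over 99.5%. HIST1H3D had 6369 and 5847 reads, or 278 and 255 TPM. HIST1H3J had 2060 and 1888 reads, or 92.3 and 84.6 TPM. HIST2H3D had 907 and 749 reads, or 83.3 and 68.7 TPM. The remaining genes had few reads: HIST2H3C 20 and 25, HIST2H3A 16 and 18, HIST3H3 (a testis H3) 2 and 8, and HIST2H3PS2 0 in both. HIST2H3A and HIST2H3C have identical transcripts, so reads from either fit both.

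All 4 matched H4 genes were detected. HIST1H4C (H4C3) led with 10493 and 9402 reads, or 954 and 854 TPM, the highest TPM of any core histone gene matched by name. In CPM, 4 H2B genes stood above it, with HIST1H2BC at 368 and HIST1H4C at 253. HIST1H4H had 237 and 233 TPM, lower by 3.84-fold in TPM and by 1.54-fold in CPM. HIST4H4, the gene alone on chromosome 12, had 52.9 and 46.9 TPM, and HIST1H4J had 34.8 and 41.4 TPM. These last genes kept their order in both libraries, by 1.52-fold and 1.13-fold in TPM, with a wide spread. In CPM, HIST4H4 was 9.04-fold above HIST1H4J. These H4 genes encode the same protein.

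Linker H1 was set against the core histones by the medians over all matched genes. The H1 median was 803 and 705 TPM and the core median 79.2 and 69.3 TPM. The ratio was 10.2-fold, a log2 difference of 3.34 ± 0.0036. Its size depended on which core genes entered and on the length used. It was 4.29-fold without the 7 genes overlapped over 10% or more of their exon bases. Without the 8 genes with at least 50% of their annotated transcript sequence in other genes it was 5.71-fold. With coding length in place of exon length it was 3.53-fold, and with all unnamed rows counted as core histones, which was not tested, it was 21.4-fold. Of the 56 unnamed rows, 5 are shorter than 312 bases, the shortest coding length among the 36 genes. Their median was 1.41 TPM, 25 were detected and 16 reached 100 TPM in both libraries. The 21.4-fold thus counts many rows with few reads as core genes, and the ratio with only the detected unnamed rows was not computed. The direction was the same in each of the ratios given. The comparison has no test, since genes are not replicates of a condition.

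Single genes overlapped more than the medians. HIST1H1C was above HIST1H4C, the matched core gene of highest TPM, by 1.79-fold and 1.76-fold in TPM, and by 3.13-fold in CPM. No matched core gene averaged above 1000 TPM, and 4 core genes averaged above HIST1H1D in TPM. Over the detected core genes alone, the median was 221 and 204 TPM. An unnamed row in the largest cluster (ENSG00000124693.2, chromosome 6, 26031817 to 26032288) reached 1427 TPM, above every H1 gene but HIST1H1C.

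As shares of the summed TPM of the 36 genes, H1 held 43.0% ± 0.636, H2B 25.0% ± 0.106, H2A 14.96% ± 0.426, H4 12.6% ± 0.278 and H3 4.44% ± 0.0381. As shares of reads, H1 held 42.7% (exact 95% interval 42.5 to 42.9) and 42.0% (41.8 to 42.2). H1 is the family with all its genes matched. When the unnamed rows of the histone loci were added to the total, the H1 share was 21.8% and 21.2%, so the 43.0% is a share of the named genes and not of histone RNA. With coding length in place of exon length, H2B held 36.7% and H1 29.5%, so that the order of these families turned.

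**Figure D3:**
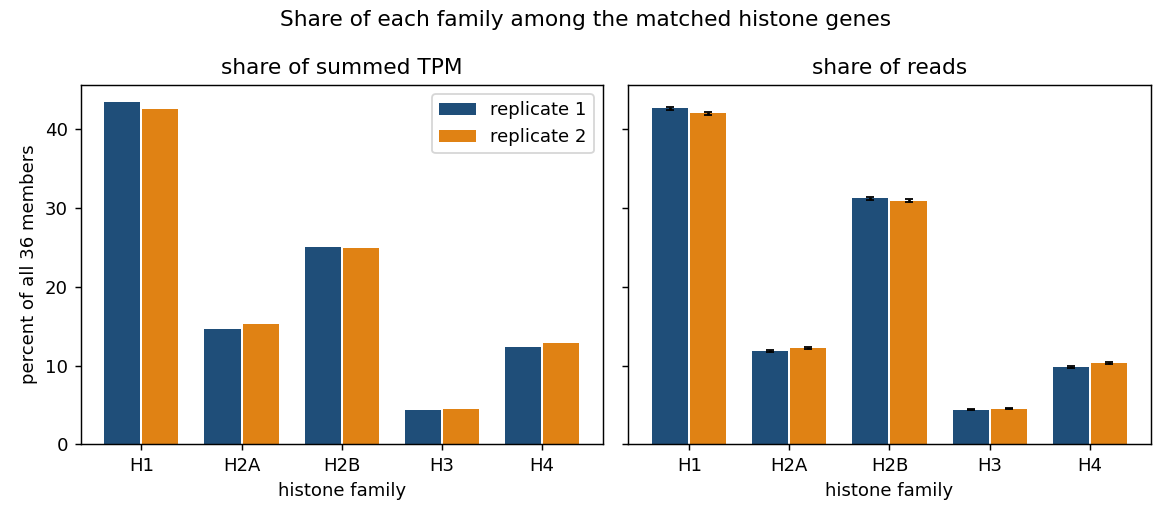
Bars give each family's share, in percent, of the summed TPM (left) and of the reads (right) of the 36 genes in each library, with exact 95% binomial intervals as error bars on the shares of reads. H1 holds 43.5% and 42.6% of the TPM, H3 holds 4.41% and 4.46%, and H2B holds a larger share of reads than of TPM.

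How much of the annotated transcript sequence of each gene recurs in other genes was then measured. Reads that match several genes are left out of the counts by default. The share of the 50-base stretches of each gene that recur exactly in another gene, not overlapping it, was 0% in all 6 H1 genes and had a median of 5.0% in core genes. It was 50% or more in 8 core genes, namely 2 H2A, 1 H2B, 4 H3 and 1 H4. Of these 8, HIST1H2BK (74.1%), HIST1H2AI (62.3%), HIST2H3D (80.4%) and HIST1H4J (81.2%) were detected and the other 4 were not. Their levels can be underestimates. The stretches were taken from annotated transcripts and not from the exon rows that were counted, and for some genes these differ in extent. HIST1H2BK had 332 stretches for a row of 820 exon bases, and HIST3H2BB had 2315 for a row of 452. For such genes the share is not the part of the row that could not be counted.

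Of the 12 undetected genes, 4 had at least 50% of their sequence elsewhere and 1 more, HIST1H2AD, was overlapped. The other 7 were neither: HIST1H1A, HIST1H1T, HIST1H2AA, HIST1H2AG, HIST1H2BA, HIST1H2BJ and HIST3H3. Of the 24 genes that are neither shared nor overlapped, 17 were detected. Overlap also touched high genes. HIST1H3D is overlapped over 44.5% of its exon bases and HIST1H3J over 41.1%, and without overlapped genes the H3 share was 0.818%.

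**Figure D4:**
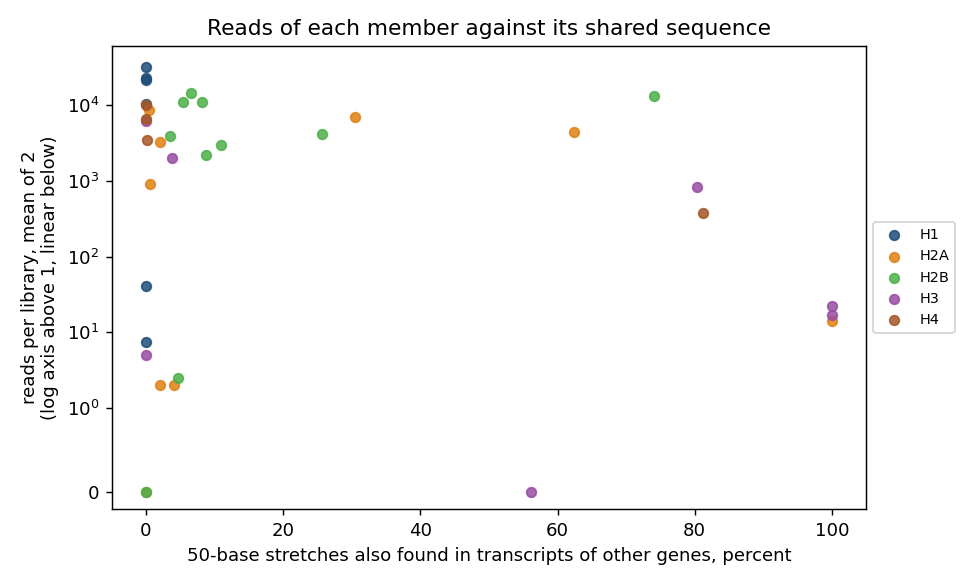
Each point is 1 gene, coloured by family, with the percentage of its 50-base stretches that recur in transcripts of other genes on the horizontal axis and its mean reads per library on the vertical axis, which is logarithmic above 1 and linear below. All 6 H1 genes lie at 0%, and 4 of the 8 genes at 50% or more were not detected.

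By position, in hg19, the genes fell into 6 groups separated by more than 500 kb. The largest, on chromosome 6 from 25726291 to 26285762, held 14 genes, of which 9 were detected. A group at 27775257 to 27860884 on the same chromosome held 6 genes, and all 6 were detected. Between them, at 27093676 to 27114619, 3 genes lay together, of which HIST1H2BK was detected and HIST1H2BJ and HIST1H2AG had at most 4 reads in a library. On chromosome 1, 5 of 9 genes were detected at 149400131 to 149859466 and 2 of 3 at 228612546 to 228646259. Every group thus held a detected gene, and 4 of the 6 held an undetected one. These counts cover matched genes only, and 60.9% of all protein-coding rows were detected. Unnamed rows also lie in the groups: 21 in the largest, 9 in the group with all 6 detected, and 25 in the group of 9 genes.

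Many H2A and H2B genes lie head to head and share a promoter region. For 6 such pairs the table had both partners matched, with starts 190 to 347 bases apart. In 4 pairs both partners were detected, in 2 pairs neither was, and no pair had only 1 partner detected. HIST1H2AA and HIST1H2BA had 0 reads in both libraries. HIST1H2AG had 4 and 0 reads and HIST1H2BJ 2 and 3.

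Within detected pairs the partners differed in TPM by more than the libraries did. HIST1H2BC exceeded HIST1H2AC by 3.41-fold (log2 H2A over H2B -1.77 ± 0.046), HIST2H2AC exceeded HIST2H2BE by 3.31-fold (1.73 ± 0.11), HIST3H2BB exceeded HIST3H2A by 2.59-fold (-1.37 ± 0.054), and HIST1H2AI exceeded HIST1H2BL by 1.28-fold (0.35 ± 0.093). The direction was not the same over pairs: H2A was higher in 2 and H2B in 2. For HIST2H2AC and HIST2H2BE it also turned with the scale, since HIST2H2BE had more reads (log2 H2A over H2B of reads -0.62) on 2223 exon bases against 437.

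**Figure D5:**
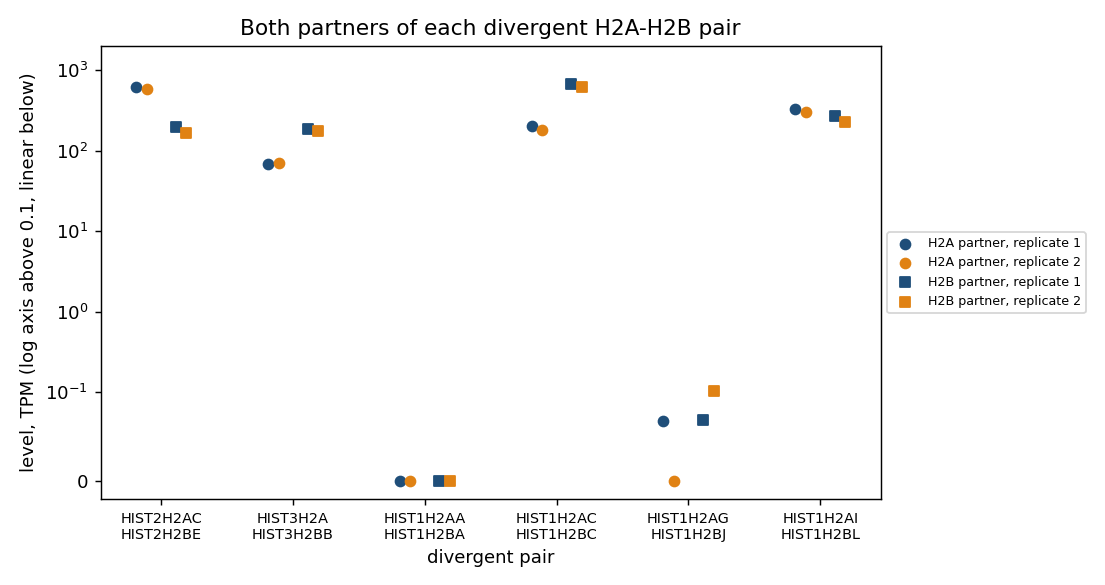
Circles are the H2A partner and squares the H2B partner of each divergent pair, coloured by replicate, with the level in TPM on an axis that is logarithmic above 0.1 and linear below. In 4 pairs both partners lie at 69.1 TPM or more, and in 2 pairs both lie near or at 0.

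Between the libraries the genes changed little. Over the 25 genes averaging 1 CPM or more, the median log2 ratio of CPM in replicate 1 to replicate 2 was 0.018, and it was 0.027 over protein-coding rows chosen the same way. The median absolute log2 ratio was 0.060, against 0.127. No gene differed by 1.5-fold or more, where 3.53% of protein-coding rows did (1.44% higher in replicate 1 and 2.09% higher in replicate 2). At that share few or none of 25 genes would pass the fold, so this does not set the histone genes apart. The histone genes and the protein-coding rows were not matched for level. Of the 25 genes, 14 were higher in replicate 1, against 56.2% of protein-coding rows. The widest gaps were in HIST1H1T, with 51 and 31 reads (log2 0.56), and in HIST1H4J, with 345 and 411 reads (-0.41). HIST3H2A (-0.17), HIST1H4H (-0.13) and HIST2H3D (0.12) followed. By family the median was 0.069 over 5 H1 genes and -0.011 over 20 core genes.

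Genes listed as replication-independent histones, whose transcripts are for the most part polyadenylated and made outside S phase too, had a lower median in TPM but a higher one in CPM. Detection was met by 12 of 15 listed genes, and the list had a median of 39.3 ± 0.246 TPM, against 82.5 ± 7.45 TPM for the 36 replication-dependent genes. In CPM the medians were 171 ± 2.72 and 79.0 ± 0.849, so the order of the medians turned with the scale. The highest were H2AFZ, which encodes H2A.Z, at 198 ± 42.4 TPM, H2AFX, which encodes H2A.X, at 157 ± 9.39 TPM and H1F0, the linker histone H1.0, at 139 ± 22.1 TPM. The germline linker genes H1FOO and H1FNT had 0 reads, as did HILS1, whose current symbol H1-9P is that of a pseudogene. The summed TPM of the 36 replication-dependent genes exceeded that of the 15 by 9.76-fold (log2 3.29 ± 0.050). In CPM, without length scaling, the excess of the sums was 2.27-fold.

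Genes that act on the replication-dependent histone genes were all detected, at levels in TPM below most of the detected histone genes. Of 14 genes for their transcription, 14 were detected, and the list median was 12.4 ± 1.52 TPM. NPAT, the coactivator that CDK2 with cyclin E phosphorylates at histone gene clusters, had 12.5 ± 1.45 TPM and CDK2 had 37.5 ± 4.06 TPM. CCNA2, cyclin A2, was highest at 73.6 ± 12.8 TPM, and E2F1, a transcription factor of S phase entry, had 56.7 ± 7.05 TPM. Of 20 genes for processing and decay of their messenger RNAs, 20 were detected, and the list median was 15.9 ± 1.78 TPM, among them SLBP at 45.7 ± 4.64 TPM and CPSF2, a subunit of the cleavage machinery, at 50.7 ± 7.5 TPM. NCBP2, the small subunit of the nuclear cap-binding complex, had 46.1 ± 7.36 TPM. These lists stand against 60.9% of protein-coding rows detected.

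Of 22 histone chaperones and carriers, 20 were detected, and the list median was 20.9 ± 2.92 TPM. NPM1, nucleophosmin, was highest at 456 ± 48.1 TPM, followed by SET at 272 ± 40.0 TPM and RBBP7 at 83.8 ± 11.2 TPM. The undetected ones were DAXX, a chaperone of the H3.3 variant, with 4 and 7 reads, and IPO4, an importer of histones, with 35 and 41 reads. Of 51 protein-coding rows within 1 Mb of DAXX, 8 (15.7%) were detected, so the low count there was shared with its neighbours, and its cause was not tested.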

How the data were processed

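RNA-seq measured gene expression in 2 libraries of T47D ESR1 Y537S cells given control siRNA at 25 nM. Per the labels' protocols, the kit kept the strand and depleted ribosomal RNA. The authors deposited raw counts made by featureCounts 2.0.2 with exons of GENCODE release 19, per the file headers. The recorded call set no strand, paired-end, multimapping or overlap option, so by default ambiguous reads were not counted and antisense reads cannot be told apart. HISAT2 and hg19 (GRCh37) come from the submitters' processing notes. Columns and samples were joined on the line, the mutated residue and the replicate, since column names do not give the siRNA. Another 8 columns of per-sample values match no sample described here and were not used. A second deposited table, over Ensembl release 87, gave only identifiers and lengths, and held all 36 genes at equal length.

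Names came from GENCODE 29 by Ensembl identifier (52338 of 57820 rows, 90.5%), since no table here pairs release 19 identifiers with names. The 36 genes and the lists were chosen with earlier results of these data known. Named beyond the replication-dependent genes are the 3 highest of each list and its undetected genes. NPAT was added for its role. CPM used the sum of all gene rows and TPM the deposited exon lengths. Detection was 1 CPM or more in both libraries. Intervals were exact Poisson or binomial (Clopper-Pearson) at 95%, and the limit for 0 reads was 3 reads. The libraries differed by more than sampling noise (chi-square per gene 11.7) and were counted as 2. No test was run, with 1 group of 2 libraries. The calculation was tested on simulated data. Tools were Python 3.11.15, pandas 2.3.3, numpy 2.4.6, scipy 1.17.1 and edgeR 4.0.16 for TMM factors.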

Additional observations from a re-analysis of the deposited data

How the results depend on the processing

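No paired analysis was possible because the labels give 1 group of 2 libraries. Coding lengths from a protein table were not run, since no such table was at hand. Coding lengths from GENCODE 29, leaving out genes with at least 50% of their sequence in other genes, and adding the unnamed rows of the loci were chosen after seeing the data. Shared sequence was measured on annotated transcripts, which for some genes differ in extent from the counted rows. The number of detected genes was 24, and 24 to 28 under the alternatives (24 to 25 for single libraries). The log2 ratio of the H1 to the core median, 3.34, was 2.60 in CPM, 2.10 without overlapped genes, 3.19 without identical transcripts, 1.82 with coding length, 2.51 without genes of shared sequence and 4.42 with unnamed rows added (3.34 to 3.35 for single libraries). The median level, 82.5 TPM, was 188 TPM without overlapped genes and 132 TPM without identical transcripts (77.3 to 87.8 TPM for single libraries). In CPM, H1, H2A, H2B and H4 held 42.3%, 12.0%, 31.1% and 10.1% of the total. Without overlapped genes, H1, H2A, H2B, H3 and H4 held 45.0%, 15.6%, 25.4%, 0.818% and 13.2%. With coding length they held 29.5%, 14.1%, 36.7%, 4.98% and 14.8%, so that H2B then exceeded H1. Without genes of shared sequence they held 48.2%, 13.1%, 21.0%, 4.09% and 13.7%. With unnamed rows in the total, H1 held 21.5%. Single libraries gave shares of 42.6% to 43.5% for H1, 14.7% to 15.3% for H2A, 24.9% to 25.1% for H2B, 4.41% to 4.46% for H3 and 12.4% to 12.8% for H4. The median log2 ratio of replicate 1 to replicate 2, 0.018, was -0.002 with TMM and -0.025 with protein-coding rows as the library size, so its sign is not set. At the lower fold tried in place of 1.5, 2 genes differed between libraries. The median absolute log2 difference within pairs, 1.55, was 0.69 in CPM (1.53 to 1.57 for single libraries). The log2 ratio of replication-dependent to replication-independent histones, 3.29, was 1.18 in CPM (3.25 to 3.32 for single libraries). The main limits are that 35 core genes were not matched, that ambiguous reads were not counted, and that 2 libraries give no test.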

Other observations

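Histone pseudogenes were low beside the protein-coding genes. The count table held 19 rows with HIST names annotated as pseudogenes, of which 2 were detected and 8 had 0 reads in both libraries. Together they took 1221 and 1095 reads. HIST2H2BC accounted for most of these, with 1015 and 925 reads, or 8.08 ± 0.534 TPM over 4527 exon bases. HIST1H1PS1, the pseudogene of the linker family, averaged 7.14 ± 2.07 TPM and HIST2H2BA 4.84 ± 0.774 TPM.

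The 56 unnamed rows within the histone loci summed to 10280 and 9235 TPM, close to the 10304 and 9180 TPM of the 36 named genes. Their median was 1.41 TPM, 25 were detected, and 16 reached 100 TPM in both libraries. The highest were ENSG00000124693.2, with 18858 and 16854 reads, and ENSG00000256316.1 at 1048 TPM. Whether each of them encodes a histone is not known from the tables used here, and 5 are shorter than 312 bases, the shortest coding length among the named genes.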
